A study of Mus musculus with 6 samples.

Results

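The regions described are promoter regions of C2C12 cells, a mouse myoblast line, at which an Lsd1 ChIP-seq peak was called in myogenic medium and in neither of the other libraries of the series. All peaks of the 3 deposited peak lists were pooled, intervals that shared at least 1 bp were merged, and a merged region was kept if its peaks came from the myogenic library alone and its centre lay within 2000 bp of a curated RefSeq transcription start site (TSS) on mm10. Of 56729 merged regions, 13362 lay at a promoter by this rule, 11902 of them held a myogenic peak, and 3403 were member regions, which is 28.6% of the promoter regions with a myogenic peak. Each member held exactly 1 peak. The members were assigned to 3153 genes, which is 30.0% of the 10499 genes with a myogenic promoter region. Because the peak calls chose the members, their presence in one list and absence from the others is no result, and no test was made of it.

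Lsd1 (Kdm1a) is a histone demethylase that removes methyl groups from lysine 4 of histone H3, and also from lysine 9 with some partners. It works mostly within complexes with the corepressors CoREST and NuRD and is found at promoters of active as well as silent genes. C2C12 myoblasts withdraw from the cell cycle and fuse into myotubes when serum is lowered, and can be diverted towards fat by adipogenic inducers. Promoters of vertebrate genes fall into a CpG-rich type, common among housekeeping and developmental genes, and a CpG-poor type, common among genes of single tissues.

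All 3 Lsd1 libraries were made on day 1 of differentiation. The myogenic library was from wild-type cells with 2% horse serum. The adipogenic library was from wild-type cells given 10% FCS with isobutylmethylxanthine, indomethacin, dexamethasone, insulin, T3 and rosiglitazone. The LSD1(OE) library was from cells in that same adipogenic medium that carried a stable, tetracycline-dependent lentiviral transgene for Flag-tagged LSD1, kept under G418 and induced with doxycycline. The labels and methods do not list doxycycline for wild-type cells. The line, the drugs and the level of LSD1 therefore cannot be told apart in that library. There was 1 ChIP library and 1 input for each condition, so every difference given here is one between single libraries, with no replicate error. The myogenic ChIP library held 46155625 tags once duplicates had been limited and 43426 peaks were called in it, with at least 27 tags a peak. The adipogenic library held 63915769 tags and 18893 peaks of at least 35 tags. The LSD1(OE) library held 55193310 tags and 33533 peaks of at least 30 tags. Where no peak was called the lists give no value, so a member's level in the adipogenic libraries is not known.

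To show what the members look like as sequence, 300 bp around the summit of the myogenic peak are given for the highest-scoring member of 5 gene groups. All are from mm10 and are printed 5′ to 3′ on the strand of the gene, with every CG pair in capitals. Tnnc2, the calcium-binding troponin of fast muscle (chr2:164780014-164780313, minus strand) and Mb, myoglobin (chr15:77022153-77022452, minus strand), are CpG-poor. Rcor1, the CoREST scaffold that holds Lsd1 (chr12:111038468-111038767, plus strand), Psmf1, a proteasome inhibitor (chr2:151741182-151741481, minus strand), and Zfp423, a factor of preadipocytes (chr8:87958748-87959047, minus strand), are CpG-rich.
Tnnc2: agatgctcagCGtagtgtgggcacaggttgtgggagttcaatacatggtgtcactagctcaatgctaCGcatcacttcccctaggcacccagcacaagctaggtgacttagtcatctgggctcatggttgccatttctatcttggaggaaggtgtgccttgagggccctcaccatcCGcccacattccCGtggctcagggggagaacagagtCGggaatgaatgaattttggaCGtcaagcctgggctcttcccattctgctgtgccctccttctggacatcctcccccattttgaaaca
Mb: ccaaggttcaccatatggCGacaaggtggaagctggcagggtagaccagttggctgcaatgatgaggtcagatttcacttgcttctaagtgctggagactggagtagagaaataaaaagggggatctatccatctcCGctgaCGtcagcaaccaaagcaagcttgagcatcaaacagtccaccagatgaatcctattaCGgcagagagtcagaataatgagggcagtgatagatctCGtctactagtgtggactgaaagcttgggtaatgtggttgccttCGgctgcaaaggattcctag
Rcor1: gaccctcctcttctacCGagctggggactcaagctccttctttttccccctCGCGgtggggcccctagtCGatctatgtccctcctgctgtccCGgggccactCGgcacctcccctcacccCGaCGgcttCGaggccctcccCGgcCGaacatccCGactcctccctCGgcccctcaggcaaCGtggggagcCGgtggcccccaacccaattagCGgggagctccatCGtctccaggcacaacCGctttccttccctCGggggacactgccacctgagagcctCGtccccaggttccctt
Psmf1: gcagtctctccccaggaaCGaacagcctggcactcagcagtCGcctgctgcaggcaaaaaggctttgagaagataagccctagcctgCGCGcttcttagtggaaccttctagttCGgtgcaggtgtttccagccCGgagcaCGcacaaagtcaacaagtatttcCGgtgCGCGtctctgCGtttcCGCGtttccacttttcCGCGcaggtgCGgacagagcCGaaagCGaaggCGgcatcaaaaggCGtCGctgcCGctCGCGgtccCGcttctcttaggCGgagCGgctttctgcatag
Zfp423: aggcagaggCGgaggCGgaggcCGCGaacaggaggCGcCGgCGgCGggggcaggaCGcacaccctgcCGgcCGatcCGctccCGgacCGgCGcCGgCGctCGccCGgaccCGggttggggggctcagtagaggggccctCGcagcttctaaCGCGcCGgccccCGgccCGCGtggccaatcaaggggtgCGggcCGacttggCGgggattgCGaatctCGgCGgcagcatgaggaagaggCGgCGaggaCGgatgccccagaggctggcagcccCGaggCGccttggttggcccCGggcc

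The capitals are sparse in the first pair of windows and dense in the others. The windows of Tnnc2 and Mb held 6 CG pairs each, against 20 for Rcor1, 27 for Psmf1 and 39 for Zfp423. The ratio of observed to expected CG pairs was 0.278 and 0.353 in the CpG-poor windows and between 0.646 (Rcor1) and 1.035 (Psmf1) in the others. The Mb window held 4 E-boxes (CANNTG), the letters bound by Myod1 and other helix-loop-helix factors, and 1 cyclic AMP response element (TGACGTCA). The Tnnc2 window held 2 matches to GGAATG, the letters of TEAD factors.

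The members were the weaker part of the myogenic promoter peaks. Their median tag count was 46, with quartiles of 33.0 and 68.0, and their median length was 859 bp. Their median score, by which MACS expresses the Poisson p-value (10 times its −log10, and at least 50 for every peak), was 99.3 with quartiles of 62.8 and 181. Promoter regions shared with the LSD1(OE) library alone had a median myogenic score of 214, those shared with the adipogenic library alone 220, and those of all 3 libraries 511. Of the members, 1709 (50.2%) scored under 100, and 287 (8.43%) scored 300 or more.

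The share of myogenic promoter regions that were members fell from 74.5% of 1669 regions with a score of 50 to 75 to 46.2% of 1232 with a score of 100 to 150, 12.1% of 1312 with a score of 300 to 400 and 1.23% of 1548 with a score of 600 to 1000. Above a score of 1000 there was 1 member among 834 regions. The score belongs to the same calls that the rule used, so this fall is a description of the members and no evidence about them.

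**Figure D1:**
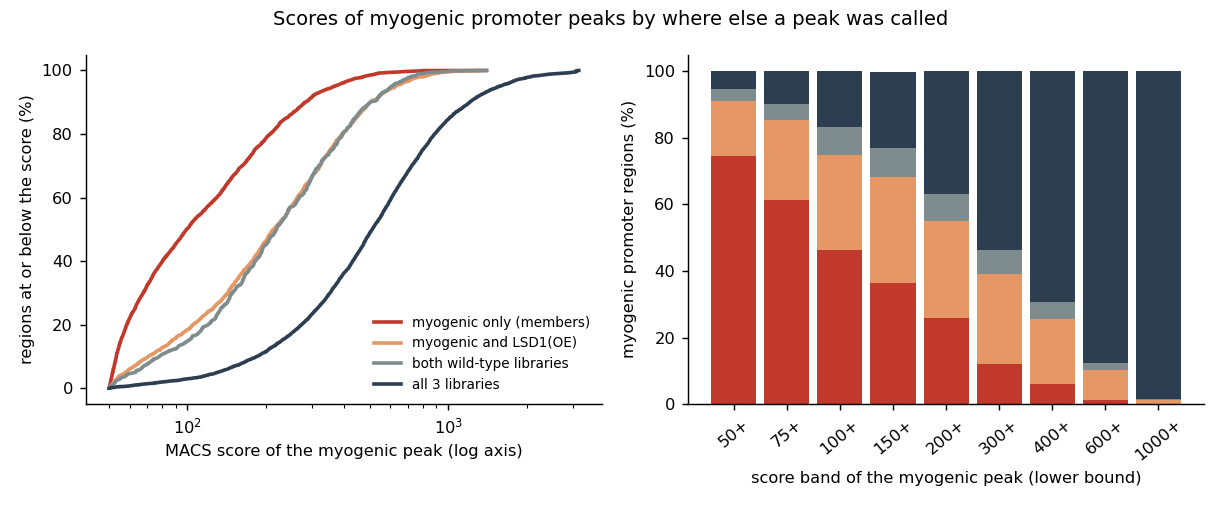
Left, the cumulative share of promoter regions by the MACS score of their strongest myogenic peak (log axis), for members (red), regions shared with LSD1(OE) alone (orange), with the wild-type adipogenic library alone (grey) and with both (dark blue). Right, how the myogenic promoter regions of each score band divide among these classes, with the members at 74.5% in the lowest band and 1.23% at scores of 600 to 1000.

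How far the missing calls depend on the strength of the other libraries was computed from the lists. For each member the local background that gives its score from its scaled tags was solved, and the score that the same tags would have, relative to library size, in each adipogenic library was worked out. At equal tags relative to library size, 3118 members (91.6%) would have reached a score of 50 in the adipogenic library and all 3403 in the LSD1(OE) library. The second count was fixed in advance and is no result. Tags are scaled to the input, which was larger for LSD1(OE) (100711088 tags) than for the myogenic library (87508211). Every score therefore rises there, and every member already scored at least 50. Promoter regions shared by all 3 libraries did not hold equal tags, however. At 2615 of them, selected for 1 peak in each library and a myogenic score of at least 400, the median ratio of tags per kb, relative to library size, to the myogenic library was 0.683 in the adipogenic and 0.767 in the LSD1(OE) library, and 99% and 91.9% of these regions were below the myogenic value. With tags reduced by those ratios, 857 members (25.2%) would have reached a score of 50 in the adipogenic library and 1579 (46.4%) in the LSD1(OE) library, and 1824 (53.6%) would have stayed under it in both. These scores are computed from the members' own myogenic tags and from ratios at other regions, and are no measured levels. Whether any member lost Lsd1 beyond the lower level seen at shared promoters was not tested. Tnnc2 and Rcor1 were among the members computed above a score of 50, at 157.3 and 168.8 in the adipogenic library with the reduced tags. Myh1, Tnnt3 and Smyd1 were among the members computed below it, at 12.6, 14.1 and 12.3.

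The highest score among the members belonged to Anp32b, which encodes an acidic histone chaperone. Its peak (chr4:46450310-46454080) was 3771 bp long, held 318 tags and scored 1393, and the centre of the region, 1269 bp past the TSS, falls in an intron. The next was Atad1, an ATPase that extracts misplaced proteins from mitochondrial membranes, with 148 tags and a score of 802. It was followed by Nfya, the DNA-binding subunit of NF-Y, with 163 tags and 798. The scores of the other members of the highest 10, among them Pycrl, Stt3b, Nrd1, Ogfod1, Rapgef6 and Brk1, ran from 795 down to 714. All 10 had a CpG ratio above 0.6 in the 1000 bp around the summit, from 0.683 (Pycrl) to 0.937 (Stt3b). Among the 10, the gap to the nearest peak of the adipogenic library ran from 544 bp (Pycrl) to 483104 bp (Nfya).

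The longest member stood apart in length and tags. The region at Erdr1 on the X chromosome (chrX:169996634-170022789) spanned 26156 bp and held 4239 tags for a score of 558, and its TSS is in a part of the X chromosome that pairs with the Y. Reads there cannot be placed on one of those chromosomes with certainty. Behind it came Anp32b with 3771 bp and Osbp with 2794 bp.

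At the other end, Mxi1 and Smim22 were the weakest members, each with a score of 50.02 from 30 tags. Drg1, Ckb, Gm10575 and Rin2 followed, each with 50.04 from 28 tags. At the 2000 bp limit, the members just inside were Npepps at 2000.0 bp upstream and Gpr52 and Mir100 at 1999.5 and 1997.5 bp downstream. Myogenic regions just outside it were those of Zdhhc5 and Capns1 (both -2000.5 bp) and Plxna1 (-2001.5 bp). The member at Smad1 abutted a peak of the adipogenic library and that at Ephx1 a peak of the LSD1(OE) library without sharing a base. A peak of either adipogenic library lay within 500 bp of 486 members (14.3%) and within 10000 bp of 1685 (49.5%), and the median gap to the nearest was 10221 bp. The most isolated was Mettl4, 5298082 bp from the nearest peak of either.

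The centres of members were spread more widely around the TSS than those of shared promoter regions. The centre was within 500 bp of the TSS at 61.7% of members (95% Wilson interval 60.0 to 63.3%, counting error only), against 81.8% (80.2 to 83.2%) of regions shared with LSD1(OE) alone and 78.6% (77.4 to 79.6%) of regions of all 3 libraries. The TSS itself was covered by 59.4%, 87.8% and 95.9% of them, and these shares go with the length of the regions, whose myogenic peaks had medians of 859, 1135 and 1615 bp. Of the members, 910 (26.7%) had their centre in exon 1 of the gene, 1084 (31.9%) in an intron of the gene, 63 (1.85%) in a later exon and 1172 (34.4%) between genes. A further gene had its TSS within 2000 bp of the centre of 494 members (14.5%), so the gene named for those is the nearest of several.

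**Figure D2:**
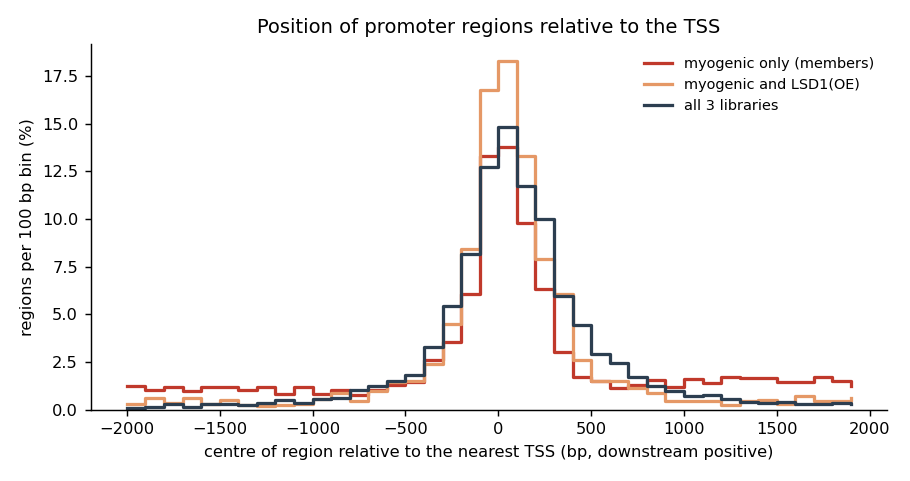
Share of regions per 100 bp bin by the distance of their centre from the nearest TSS (downstream positive), for members (red), regions shared with LSD1(OE) alone (orange) and regions of all 3 libraries (dark blue). All peak at the TSS, and the members have the flattest tails, with 11.2% of centres more than 1000 bp upstream and 15.5% more than 1000 bp downstream.

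By the rule no member overlaps a peak of the adipogenic libraries. A gene whose only promoter regions are members therefore has none in those libraries by construction, and the share of such genes is no result about them. Of the 3153 genes, 2349 (74.5%) had no promoter region with a peak of either adipogenic library, while 503 (16.0%) had another promoter region with a peak of the wild-type adipogenic library and 741 had another with a peak of the LSD1(OE) library. For such genes the member is a part of a promoter, or one of several promoters. There were 231 genes with more than 1 member region and none with more than 3. Protein-coding genes made up 88.3% of the genes with a member, and 260 (8.25%) encoded long noncoding RNAs. Of genes with a curated TSS, 13.3% of the 21000 protein-coding and 7.84% of the 3318 long noncoding RNA genes had a member. Over all types of gene it was 3153 of 26180.

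The members were of both promoter types, and fewer of them were CpG-rich than of the shared regions. A ratio of observed to expected CG pairs of at least 0.6 in the 1000 bp around the summit was found at 1533 members (45%, interval 43.4 to 46.7%), at 70.3% (68.5 to 72.0%) of regions shared with LSD1(OE) alone and at 76.4% (75.2 to 77.5%) of regions of all 3 libraries. Among all 31647 curated TSSs, with the window around the TSS, it was 43.2%. With the window around their nearest TSS, the like measure, the members' share was 59.8%. Score went with this difference: the CpG-rich share rose from 23.6% among members scoring 50 to 75 to 76.1% among members scoring 300 to 400, where regions of all 3 libraries had 76.0%. In the 3 bands under 150 the CpG-rich share was 23.6%, 36.6% and 49.2% for members and 37.9%, 48.6% and 64.9% for regions of all 3 libraries.

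The CpG-rich and the CpG-poor members differed in the other values too. The 1533 CpG-rich members had a median of 61.0 tags and a score of 154, and 89.7% of them were centred within 500 bp of the TSS. The 1870 CpG-poor members had a median of 37.0 tags and a score of 74.1, and 38.7% were centred within 500 bp. MicroRNA genes were the nearest gene of 0.457% of the CpG-rich and 3.74% of the CpG-poor members.

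**Figure D3:**
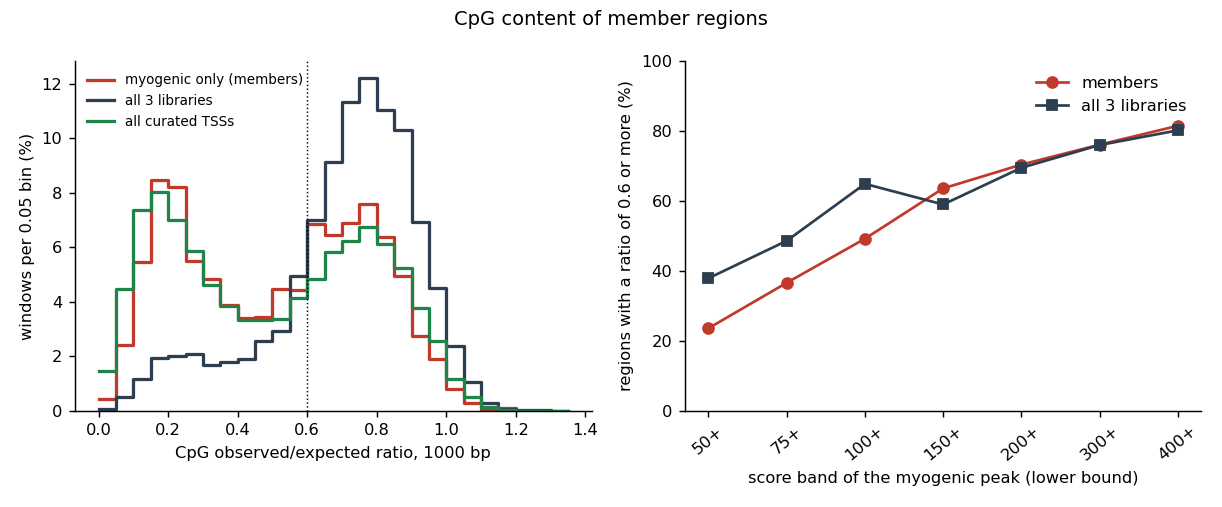
Left, distribution of the CpG observed over expected ratio in 1000 bp windows of members (red), regions of all 3 libraries (dark blue) and all curated TSSs (green), with the limit of 0.6 dotted. Windows lie around the summit for regions and around the TSS for all TSSs. Members form a low and a high group as all TSSs do, and the share at or above the limit was 45% for members against 76.4% for regions of all 3 libraries. Right, the share at or above the limit by score band for the bands under 600, which rises from 23.6% to 81.5% for members.

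Of 13 short motifs searched, Sp letters differed most between members and the regions of all 3 libraries. The 300 bp windows lay around the summit for regions but around the TSS for all TSSs, so shares at TSSs are of unlike positions. On either strand, Sp letters (GGGCGG) were present at 38.0% of members, 65.2% of regions of all 3 libraries and 44.3% of all TSSs. These letters hold a CG pair. Within the CpG-rich class they were present at 62.8%, 73.0% and 74.7%, and within the CpG-poor class at 17.6%, 39.8% and 21.2%. The E-box (CANNTG) was present at 69.7%, 64.0% and 68.4%, and its form preferred by Myod1 (CAGCTG), which is counted within it, at 19.2%, 19.6% and 17.9%. The Ets letters (CCGGAA) stood in 19.5%, 20.1% and 17.5%, and the TEAD letters (GGAATG) in 13.7%, 11.7% and 12.6%. Within the CpG-rich class, Ets letters were found in 31.8% (29.5 to 34.2%) of members, 22% (20.8 to 23.3%) of regions of all 3 libraries and 29.2% of TSSs. In the CpG-poor class members had fewer of them than regions of all 3 libraries. The shares there were 9.36% (8.12 to 10.8%), 13.7% (11.9 to 15.7%) and 8.63%. Within the CpG-poor class, the AP-1 letters (TGANTCA) were found in 12.1% (10.7 to 13.6%), 15.4% and 9.16%, and CAGCTG in 24.3%, 28.4% and 20.8%. NF-Y letters (CCAAT) stood in 29.3% of all members and 34.9% of TSSs, TATAAA in 7.11% and 9.96%, and AGGTCA, the half-site of nuclear receptors, in 14.8% and 14.1%. Those of the cyclic AMP response element (TGACGTCA), NRF1 (GCGCATGC), YY1 (AAGATGGC) and C/EBP (TTGCGCAA) stood in 1.62%, 3.11%, 4.03% and 0.147% of members.

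Members at genes of the contractile apparatus were mostly CpG-poor. Of 72 sarcomere genes with a curated TSS, 39 had a myogenic promoter region and 25 had a member, which is 64.1% (48.4 to 77.3%) of the 39 beside 30.0% of all genes with a myogenic promoter region. In 16 of the 25 neither adipogenic library had a promoter peak, beside 74.5% of all genes with a member. Counted as regions, 30 of 56 were members, while the shares of members in 9 score bands over all promoters give 21.6 for regions with these scores. The 25 members were CpG-poor with 2 exceptions and had a median CpG ratio of 0.193.

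The Tnnc2 region (chr2:164778711-164780699) held 161 tags over 1989 bp and scored 528, and it covered the TSS. Tnni2, the inhibitory troponin of fast fibres, had 2 members, one with 105 tags and a score of 300.07 just downstream of the TSS (chr7:142441182-142442852) and one with 76 tags and a score of 205 upstream. Mb had a region of 134 tags at its TSS (chr15:77021876-77023821) with a score of 278 and a second of 37 tags, with a score of 76.5, in an intron. These 3 genes had the highest scores of the sarcomere list, and the nearest peak of another library to the stronger Mb region lay 3627 bp away, in the LSD1(OE) list.

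Tnnt2, the cardiac troponin T that is also made in early skeletal muscle, had a region of 90 tags that scored 233 (chr1:135835103-135836613) and another of 36 tags. Nebl, a thin filament protein, had 88 tags and a score of 231 and was 1 of the 2 CpG-rich regions of the list, with a ratio of 0.714. Myh3, the embryonic myosin heavy chain, had 69 tags and a score of 222 in a region centred at -1384 bp from the TSS (chr11:67076402-67077430) and 41 tags near the TSS. Other muscle members were close to the call limit: Myl1, Tnnc1, Tnnt3 and Myh1 had 34, 28, 32 and 30 tags and scores of 65.4, 64.8, 59.9 and 51.9. Acta1, skeletal actin, had 2 upstream regions of 29 and 28 tags. In all, 15 of the 25 genes had a best score under 100.

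The genes whose Lsd1 ChIP-seq the study names in its text were set apart as a list of their own, which was therefore chosen on these samples. Of these 12 genes, 11 had a myogenic promoter region and 7 of those a member (63.6%, 35.4 to 84.8%), beside 30.0% of all genes. Counted as regions, 9 of 13 were members, where the score bands give 6.21. The 7 genes were Mb, Myh3, Ttn, Myl1, Tnnc1, Tnnt3 and Myh1. None of the 7 had a promoter region in either adipogenic library, as was so for 74.5% of all genes with a member. Ttn, the giant elastic protein of the sarcomere, had 72 tags and a score of 128 over its first exon (chr2:76981718-76983177). Myog was not a member, because a peak of the LSD1(OE) library overlapped the myogenic one, and at Mef2d and Glis1 peaks of all 3 libraries overlapped.

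Genes of excitation-contraction coupling had a member in 10 of 18 with a myogenic promoter region (55.6%, 33.7 to 75.4%), beside 30.0% of all genes. This order turned in 3 alternatives: the share was 18.8% against 24.6% of all genes with a promoter window of 1000 bp, and 23.5% and 11.8% against 25.2% and 23.2% with regions merged across gaps of 500 and 1000 bp. Cacna1s, the voltage sensor of the muscle calcium channel, led with 99 tags and a score of 293 (chr1:136051243-136052781), 49 bp from a peak of the adipogenic library. Ryr1, the calcium release channel, had 82 tags and a score of 195 in an intron, with no peak of the other libraries within 30358 bp. In 7 of the 10 genes an adipogenic library had another promoter region, while 74.5% of all genes with a member had none. Among the 7 was Cacnb1, which had a region of all 3 libraries and a member 35 bp from an LSD1(OE) peak. The count of 10 of 28 regions was close to the 9.64 that the score bands give.

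Regulators of myogenesis had members at a share near that of all genes. Of 36 genes, 28 had a myogenic promoter region and 7 of those a member (25%, 12.7 to 43.4%), beside 30.0% of all genes. Counted as regions, 10 of 35 were members, where the score bands give 10.1. The median of the best scores of the 7 was 89.3, beside 99.3 over all members. Among the 7 were Myod1, Tcf3, Six4, Eya2, Tead2 and Smyd1. The lowest of their best scores was 51.8 (Smyd1). Myod1, the master regulator of the lineage, had a region of 42 tags that scored 106 over its last exon (chr7:46377944-46378681) and one of 39 tags that scored 69.6 over exon 1 (chr7:46376538-46377342), and the nearest adipogenic peak was 22064 bp away. Tcf3 also had a region of all 3 libraries. Of the 15 inhibitors of myogenesis with a myogenic promoter region, Zeb2 and Id2 had a member (13.3%, 3.74 to 37.9%), or 3 of 20 regions where the score bands give 4.30, and both had a promoter region of all 3 libraries as well.

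The genes of Lsd1 and its partners had a member in 6 of 24 (25%), near the 30.0% of all genes, and 6 of their 28 regions were members where the score bands give 5.52. Rcor1 was the strongest, with 152 tags and a score of 541 centred at -629.5 bp from the TSS (chr12:111037689-111039786). Kdm1a itself, which encodes Lsd1, had 123 tags and a score of 310 (chr4:136601094-136603178), and its nearest LSD1(OE) peak was 2519 bp away. Ctbp2, a corepressor, Chd4, the NuRD remodeller, Rbbp7, a histone-binding subunit, and Mta3, a NuRD subunit, had scores of 145, 105, 66.5 and 51.2. In 5 of the 6 genes, all but Mta3, no adipogenic library had a promoter region, beside 74.5% of all genes with a member. Among other enzymes of histone lysine methylation, 16 of 46 had a member (34.8%, 22.7 to 49.2%), and 20 of 59 regions were members where the score bands give 18. They were led by Eed, a subunit of Polycomb complex PRC2, with 100 tags and a score of 387, and by Ehmt2, the lysine 9 methyltransferase G9a, with 109 tags and 368.

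Members at genes for subunits of basic cell machines were mostly CpG-rich. Of genes whose symbols begin with Psm, nearly all proteasome subunits and assembly factors, 18 of 37 had a member (48.6%, 33.4 to 64.1%), beside 30.0% of all genes. All 18 were CpG-rich. One of them, Psmc3ip, is a recombination factor and no proteasome protein. Psmf1, Psmc6, a base ATPase, and Psmb2, a core subunit, had 69, 78 and 75 tags and scores of 267, 261.0 and 238. In 17 of the 18 no adipogenic library had a promoter region, beside 74.5% of all genes with a member. Counted as regions they were 19 of 39, where the score bands give 14.

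The share over all genes with a myogenic promoter region was 30.0%. Oxidative phosphorylation genes were members in 28 of 67 (41.8%, 30.7 to 53.7%) and cytosolic ribosomal protein genes in 24 of 64 (37.5%, 26.7 to 49.7%). As regions these were 28 of 70 and 24 of 66, and the score bands give 22.2 and 17.7. Ndufa5 and Ndufs6, subunits of complex I, had 83 and 86 tags and scores of 371 and 325. Rps6, a ribosomal protein, had 95 tags and a score of 449. The members were CpG-rich in 20 of the 28 and 22 of the 24 genes. Mitochondrial ribosomal protein genes had a member in 14 of 53 (26.4%), and 15 of their 55 regions were members where the score bands give 19.9. Cell cycle genes had one in 12 of 48 (25%), or 13 of 54 regions where the score bands give 14.9, with Cdc25a, the phosphatase that activates cyclin-dependent kinases, at a score of 277 and Aurka, a mitotic kinase, at 246.

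Adipogenic regulators had a member in 4 of 39 (10.3%, 4.06 to 23.6%), beside 30.0% of all genes. With an FDR of at most 0.1% in every list it was 12 of 38 (31.6%) beside 38.1%, and with a score of at least 100 it was 21.1% beside 33.1%. Their myogenic promoter regions were strong, with a median score of 462. The score bands give 7.14 of their 48 regions and 5 were members. Zfp423 had 141 tags and a score of 359 in an intron (chr8:87957816-87959574), 176 bp from an LSD1(OE) peak, and its promoter also had a region of all 3 libraries. Nfib and Ppargc1a, the coactivator of mitochondrial biogenesis, scored 131 and 92.4, and Zfp516, a factor of brown fat, scored 128. Ppargc1a was the one without another promoter region in the adipogenic libraries. Genes of adipocyte lipid metabolism had a member in 5 of 26 (19.2%), and 5 of 29 regions were members where the score bands give 5.91. Of these Lipe, hormone-sensitive lipase, was the strongest with 104 tags and a score of 407 (chr7:25395226-25396584), and Lpl, lipoprotein lipase, the weakest with 28 tags and 54.7.

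**Figure D4:**
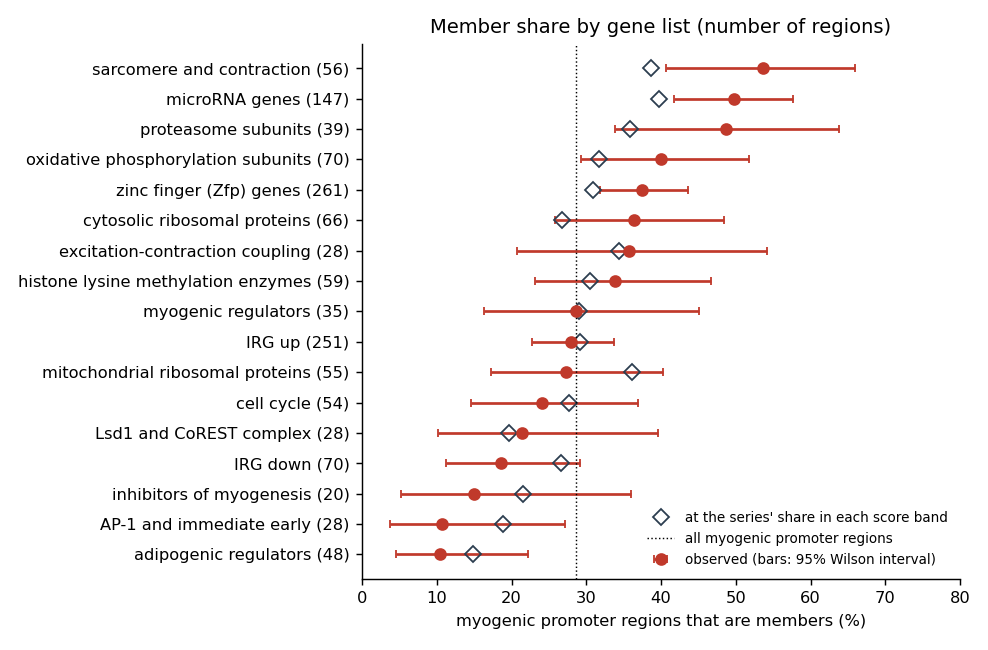
Share of the myogenic promoter regions of a selection of the gene lists that were members (red, 95% Wilson interval), with the share that the regions' scores give at the series' share in each score band (open diamonds) and the share of all myogenic promoter regions, 28.6% (dotted). Numbers after the names are regions, and the observed shares of the lists drawn run from 53.6% for sarcomere genes to 10.4% for adipogenic regulators.

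The study's inversely regulated genes, which moved in opposite directions when Lsd1 was knocked down and overexpressed in adipogenic medium, had member shares near or below the 30.0% of all genes. Among those higher with LSD1(OE), 56 of 197 genes with a myogenic promoter region had a member (28.4%, 22.6 to 35.1%), and among those lower with it 12 of 60 (20.0%, 11.8 to 31.8%). As regions they were 70 of 251 and 13 of 70, where the score bands give 73.4 and 18.7. The highest scores in the first group after Rcor1 were those of Dyrk2, a kinase, with 115 tags and 337, Mb, and Vps13c, a lipid transfer protein, with 91 tags and 265. In the second, Crem, a transcription factor of cyclic AMP signalling, led with 111 tags and a score of 523. It was followed by P4ha2, a collagen prolyl hydroxylase, with 86 tags and a score of 288, centred 5.0 bp from its TSS.

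MicroRNA genes with a myogenic promoter region had a member in 68 of 135 (50.4%, 42.0 to 58.7%), beside 30.0% of all genes. For all but the host genes Mir100hg and Mir1a-1hg, the annotated start is the 5′ end of the hairpin and not the promoter of the primary transcript, so those regions lie near hairpins, often within a host gene. Of the 147 regions, 73 were members, where the score bands give 58.4. Mir199a-2, one of a pair of hairpins for the same miRNA, had 103 tags and a score of 427 (chr1:162217220-162218510) beside its host Dnm3os. Mir5619 scored 482 within 2000 bp of the TSS of Nudt9, and Mir1954 scored 418 in an intron of another gene.

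By chromosome, members were most frequent on the X chromosome, where 125 of 197 myogenic promoter regions were members (63.5%, 56.5 to 69.9%), against 28.0% of the 11705 on autosomes. They made up 41.7% on chromosome 7, 36.0% on chromosome 9 and 16.6% on chromosome 15, and between 22.8% and 31.4% on each of the others. Tag counts moved with these shares: at regions of all 3 libraries the myogenic peaks had a median of 70.0 tags on the X chromosome, 98.0 on chromosome 7, 108 on chromosome 9 and 193 on chromosome 15, and from 113 to 150 on the other autosomes. The score bands give 102 members for the X chromosome, 274 for chromosome 7, where there were 310, 212 for chromosome 9, where there were 218, and 112 for chromosome 15, where there were 97. The part of the tag counts in these shares was not tested. Rbbp7 and Phf8, the histone demethylase with 70 tags and a score of 189, are members on the X chromosome.

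**Figure D5:**
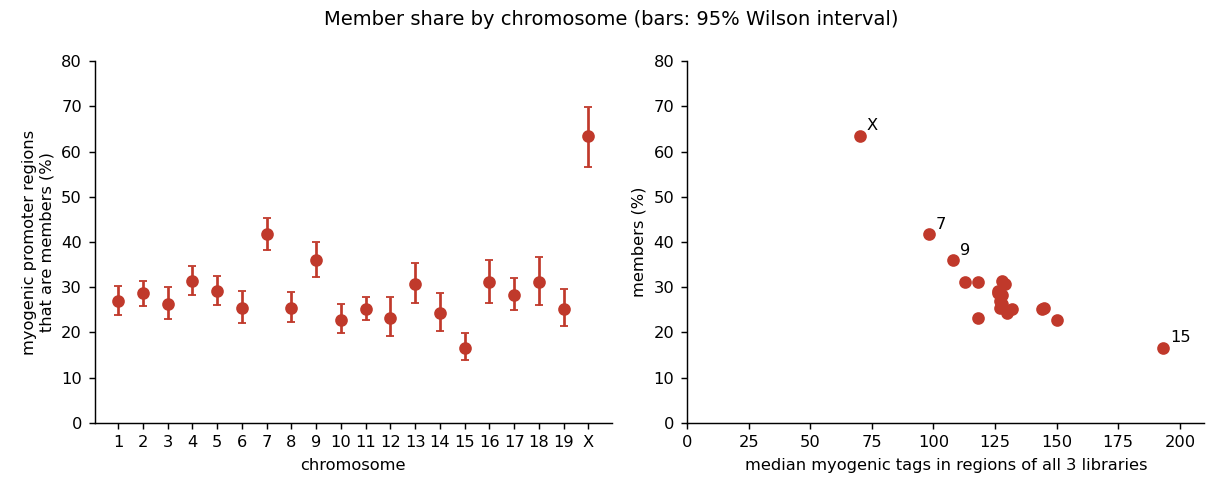
Left, share of myogenic promoter regions that were members on each chromosome, with 95% Wilson intervals, highest on the X chromosome (63.5%) and lowest on chromosome 15 (16.6%). Right, the same share against the median tag count of myogenic peaks at regions of all 3 libraries, 1 point for each of the 20 chromosomes, on which chromosomes with fewer tags have more members.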

How the data were processed

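Lsd1 ChIP-seq peaks of 3 libraries were analysed, 1 per condition. Reads of 50 bp had been mapped to mm10, and MACS 1.4.2 had called peaks over the matching input (p cut-off 1e-05), scaling the smaller library up to the larger. The labels name Bowtie2 and MACS 1.41. In the deposited lists the tags are a raw count per peak after the authors' run had limited duplicates. The score, as deposited, is the −log10 of the p-value times 10. The deposited fold enrichment and FDR (in percent) were not compared between libraries.

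Intervals were merged across lists (overlap of at least 1 bp) and assigned to the nearest of 31647 curated RefSeq TSSs (GRCm38.p6, the build of mm10). A region with several myogenic peaks was represented by the strongest. The CpG ratio was taken in 1000 bp and 13 motifs in 300 bp around the summit, or around the TSS for all TSSs. Intervals of shares are 95% Wilson intervals and cover counting error only. No test was made, since the design has 1 library a condition and the calls chose the members. The members and the gene lists were chosen with earlier results of these data known. Lists were matched by symbol, older symbol or, for 9 misread names in the study's tables, by a corrected spelling. Named genes are the 10 highest and 3 lowest scores, those nearest the 2000 bp limit, the best scores of each list, the 3 longest members and those nearest to and farthest from another library's peak. Members named beyond this rule, such as Acta1, Tead2 and Smyd1, were chosen after their values were seen. Merging and assignment were tested on simulated peaks. Python 3.11.15, NumPy 2.4.6, pandas 2.3.3 and SciPy 1.17.1 were used. Some items are not reported here.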

Additional observations from a re-analysis of the deposited data

How the results depend on the processing

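The number of members depends on how the peaks are thinned and on the promoter window. It stayed within 1.5 times of 3403 under 8 of 10 alternatives and moved to 1681 with equal numbers of the strongest peaks (18893 a library) and to 5267 with a window of 5000 bp; genes with a member fell from 3153 to 1663, and genes named by the rule that kept a member fell from 203 to 121, with equal numbers. The share of myogenic promoter regions that were members, 28.6%, was 37.0% with an FDR of at most 0.1%, 32.1% with a score of at least 100, 20.2% with equal numbers, 27.4% with ChIP tags not scaled up, 24.2% and 34.6% with windows of 1000 and 5000 bp, 24.5% and 22.7% with merging across gaps of 500 and 1000 bp, and 31.6% with predicted TSSs. The members are other regions under the stricter limits: with a score of at least 100, 1694 of the 3403 (49.8%) stayed and 1349 regions joined them. The CpG-rich share, 45%, was 67.6% with a score of at least 100, 72.0% with equal numbers, 59.3% with the 1000 bp window, 47.4% in 300 bp, 59.8% around the TSS and 24.8% at a ratio limit of 0.75. List shares under these settings were added after the data were seen. The sarcomere share, 64.1% in the main setting, lay above that of all genes under all 10 (lowest 30.8% against 20.9%, with equal numbers). It came closest with a score of at least 100, at 12 of 30 genes against 33.1% of all genes. With ChIP tags not scaled up it was 36.7% against 28.3%. The microRNA share also lay above under all 10, but moved from 50.4% to 38.1% against 33.1% with a score of at least 100. With equal numbers it was 28.2% against 20.9%. The share of adipogenic regulators lay below that of all genes under all 10, although it moved from 10.3% to 31.6% with an FDR of at most 0.1%. The share of excitation-contraction genes fell below that of all genes with the 1000 bp window and with merging across gaps (11.8% at 1000 bp). Myl1, Tnnc1, Tnnt3 and Myh1 had no member under the FDR, score, equal-number and unscaled settings. No paired analysis was possible because each condition has 1 library and no result comes from a test.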

Other observations

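Some lists not chosen for a part in muscle or fat were counted as well. Of 35 liver and epithelial genes, 6 had a myogenic promoter region and all 6 had a member, where the score bands give 3.16 of their 6 regions. Among them were Elf3, an epithelial Ets factor, at 67 tags and a score of 180, Cdh1, E-cadherin, at 62 tags and 169, and Krt14, a keratin, at 55 tags and 149. The 6 were CpG-poor. Of 40 blood and immune genes, 5 had a myogenic promoter region and 0 a member. Of 1125 olfactory receptor genes, 3 had a myogenic promoter region and all 3 had a member, as 4 regions where the score bands give 1.98. Zinc finger genes with Zfp symbols had a member in 93 of 239 with a myogenic promoter region (38.9%, interval 33.0 to 45.2%), beside 30.0% of all genes. Of their 261 regions, 98 were members where the score bands give 80.7. Zfp771 and Zfp866 led them with 100 and 90 tags and scores of 430 and 385.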
